A study of Mus musculus with 4 samples.

Results

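The genes described here encode splicing factors and heterogeneous nuclear ribonucleoproteins (hnRNPs), measured in fully grown mouse oocytes before and after the chromatin surrounds the nucleolus. They were chosen by symbol alone, as every listed gene named Srsf, Sf3a, Sf3b, Snrp, Hnrnp or Prpf with its number or letters, with 1 imprinted Snrp gene left out. The rule found 64 of the 16861 listed genes, of which 11 are Srsf, 9 Sf3a or Sf3b, 11 Snrp, 20 Hnrnp and 13 Prpf genes. All 4 RNA-seq libraries came from germinal vesicle (GV) oocytes of 3-week-old female C57BL/6J mice, with no treatment stated other than Hoechst staining and milrinone, which holds the oocyte in meiotic arrest during sorting. There were 2 libraries of oocytes with a non-surrounded nucleolus (NSN), whose chromatin is dispersed, and 2 of oocytes with a surrounded nucleolus (SN), whose chromatin forms a ring around it. Each library pooled 15 oocytes that had been sorted under the microscope, and nothing in the labels ties a library to separate animals, so the p-values here measure the spread between these libraries, which may be technical. Smart-seq2, in which cDNA is primed at the poly(A) tail and amplified, gave values deposited as FPKM, that is read pairs divided by gene length and by the total of the library.

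Splicing removes introns from nascent transcripts. Small nuclear ribonucleoproteins (snRNPs) recognise the splice sites, and most carry a ring of Sm proteins that holds their RNA. The SF3A and SF3B complexes join the branch point within the U2 snRNP, and the PRP factors build, activate and drive the catalytic spliceosome. SR proteins, which carry repeats of arginine and serine, mostly promote the use of an exon, whereas hnRNPs coat the transcript and often repress exons. NSN oocytes still transcribe, and SN oocytes have become nearly silent, so an SN oocyte lives on RNA made earlier. Many splicing factor genes also make transcripts with a so-called poison exon that are degraded, and a value per gene sums such transcripts with the coding ones.

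Library totals ranged from 17069772 to 17998361 read pairs. Together the members took 0.486% and 0.500% of all read pairs in NSN and 0.569% and 0.553% in SN libraries. Markers of the oocyte were abundant throughout, as all 12 were listed, with a summed level of 23274 to 24739 FPKM in NSN and 16627 to 17123 FPKM in SN libraries, and 8 of them were called lower in SN. Of 13 granulosa and cumulus cell markers, 9 were listed, with a summed level of 9.65 to 13.7 FPKM in NSN and 13.9 to 14.0 FPKM in SN libraries, while Amh and Foxl2 were not among the listed genes. Of 5 blood and immune markers only Cd68 was listed, at 0.594 to 0.622 FPKM in NSN and 0.652 to 0.972 FPKM in SN libraries, and no marker of these other cells was called. FPKM are shares of a library, so when the most abundant transcripts take a smaller share, the FPKM of the others rise. The 100 most abundant genes took up 39.9% and 38.8% of each NSN library and 35.5% and 35.4% of each SN library, and the part of this in the differences below was not tested. In pooled oocytes, a change in the RNA of each oocyte and a change in the share of its other transcripts cannot be told apart.

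The splicing factor genes were well expressed in both configurations, but unevenly. The median of their mean levels was 13.1 FPKM against 1.65 FPKM for all listed genes, and 53 of the 64 lay in the upper 50% of listed genes. Hnrnpk, whose product binds cytidine-rich RNA, was the most abundant, ranking 247 among all listed genes. It was followed by Prpf38a, Hnrnpc, Sf3b1 and Hnrnpa1, and these 5 genes held 46.9% of the summed FPKM of the members. At the other end, 6 genes had a mean level under 0.5 FPKM. Prpf19, which encodes the ubiquitin ligase at the centre of a core spliceosomal complex, was at 0.0369 and 0.0359 FPKM in NSN and 0.0848 and 0.0894 FPKM in SN libraries, on 4 to 10 read pairs. Srsf12, an SR protein gene, rested on 1 or 2 read pairs per library. Sf3a2 rested on 5 to 12 read pairs per library. Hnrnpl ranged from 0.150 to 0.228 FPKM over the 4 libraries, Prpf40b from 0.242 to 0.501 and Hnrnpll from 0.344 to 0.631. These 6 genes were below the filter of the test and are given as levels only.

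**Figure D1:**
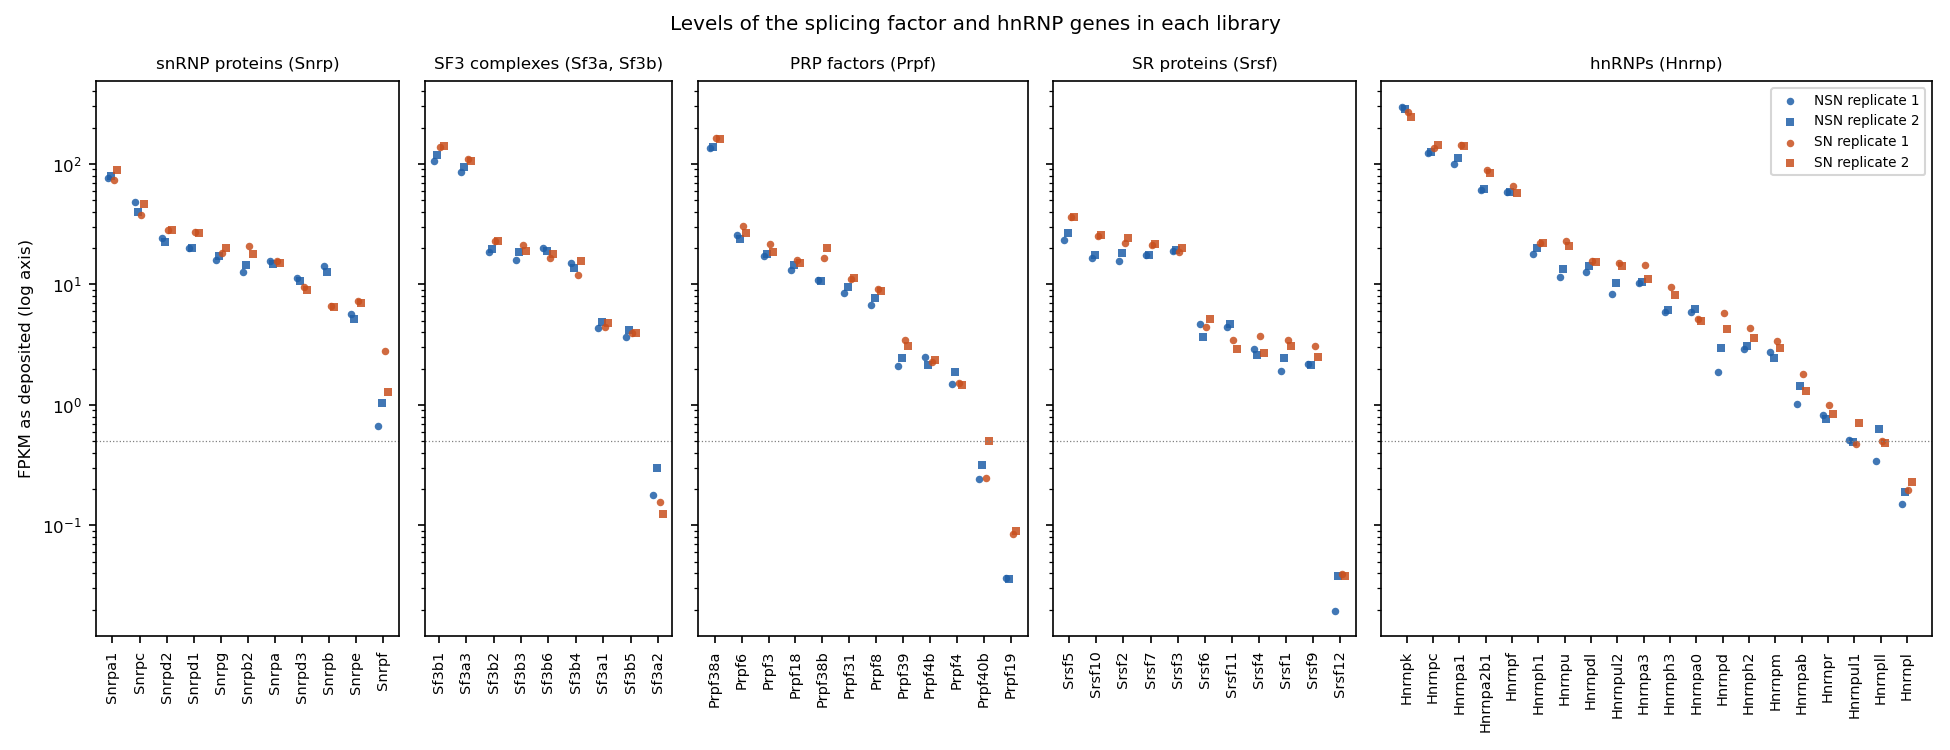
FPKM as deposited (log axis) of the 64 genes but 1, in 5 panels by family, with genes ordered by their mean; each point is 1 library, blue for NSN and orange for SN, and the dotted line marks 0.5 FPKM. Hnrnpk stood highest, and Prpf19 and Srsf12 stood lowest in all 4 libraries.

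Products that work in a fixed ratio did not have transcripts in that ratio. The 3 subunits of SF3A, which form 1 complex, differed 518-fold between the highest and the lowest mean level. Sf3a3 was at 86.3 and 93.5 FPKM in NSN and 109 and 106 FPKM in SN libraries, Sf3a1 at 4.31, 4.88, 4.47 and 4.80 FPKM in the same order, and Sf3a2 on at most 12 read pairs in any library. Within the listed SF3B genes the range was 32.1-fold, from Sf3b5 to Sf3b1. Within the Sm ring it was 18.0-fold, from Snrpf at 1.45 FPKM to Snrpd2 at 26.0 FPKM over the 4 libraries. Part of these exons also lies in other annotated genes (28.3% of the exonic bases of Sf3a2 and 82.6% of those of Snrpf in the later annotation used here), and its part in the low values was not tested.

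SN and NSN oocytes were then compared to ask how transcript levels of the splicing machinery differ across the transition. Here log2(FPKM + 0.5) was fitted with limma for 11672 genes, those whose FPKM averaged at least 0.5 over the libraries, which include 58 of the 64 members. A gene was called where its p, two-sided and adjusted after Benjamini-Hochberg, was under 0.05 and its levels differed at least 1.2-fold. Fold changes on this scale understate those of genes with low FPKM. A total of 9 members were called, 8 higher and 1 lower in SN oocytes than in NSN oocytes. The 8 were Srsf5, Srsf10, Hnrnpa1, Hnrnpa2b1, Hnrnpu, Hnrnpul2, Snrpd1 and Prpf38b, and the 1 that fell was Snrpb. Of all genes tested, 7.93% were called, 5.95% higher and 1.98% lower. The share of members called higher (13.8%) was above this background, and the share called lower (1.72%) was near it. At an unadjusted p under 0.05 there were 27 members, 25 of them higher in SN, against 31.7% of all genes tested. The members are more abundant than the typical listed gene, and the part of level in these shares was not tested. With the filter set at a mean FPKM of at least 5, limma called 13 of 41 members (12 higher), against 1496 of 5519 genes (1169 higher). It kept the 9 and added Hnrnph3, Sf3b1, Snrpb2 and Srsf2. With that filter, the share of members called in either direction lay closer to that of all genes.

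The median over the members lay slightly above that of all genes tested, but the median of the SF3 genes did not. The median log2 fold change was 0.24 over the 58 members and 0.14 over all genes tested, and 40 of the 58 members (69.0%) exceeded the median of all genes. Both SN libraries lay above both NSN libraries for 38 members, against 44.8% of all genes tested, and below them for 6 members, against 17.8%. When each library was divided by its median ratio to the mean of the 4 libraries (median scaling), the median over all genes moved from 0.14 to 0.005 and that of the members to 0.09. Then limma called 2 members, Hnrnpu and Snrpb, 1 higher and 1 lower, where 2.2% of all genes were called (78 higher and 179 lower, against 695 and 231 on the FPKM as deposited). The number of calls also depended on which library was left out, and the cause was not tested. With 1 library left out, the lone library of that group was assumed to vary like the others, and limma called 0 members without NSN replicate 1 (18 at an unadjusted p under 0.05), 0 without SN replicate 2 (21 at an unadjusted p under 0.05), 2 without SN replicate 1 (Prpf38b and Snrpb) and 12 without NSN replicate 2. Over all 11672 genes tested, the counts in the same order were 0, 11, 148 and 1685. The smallest two-sided p of an exact permutation test with 2 libraries per group is 0.333, and each p of limma therefore rests on variance pooled across genes.

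**Figure D2:**
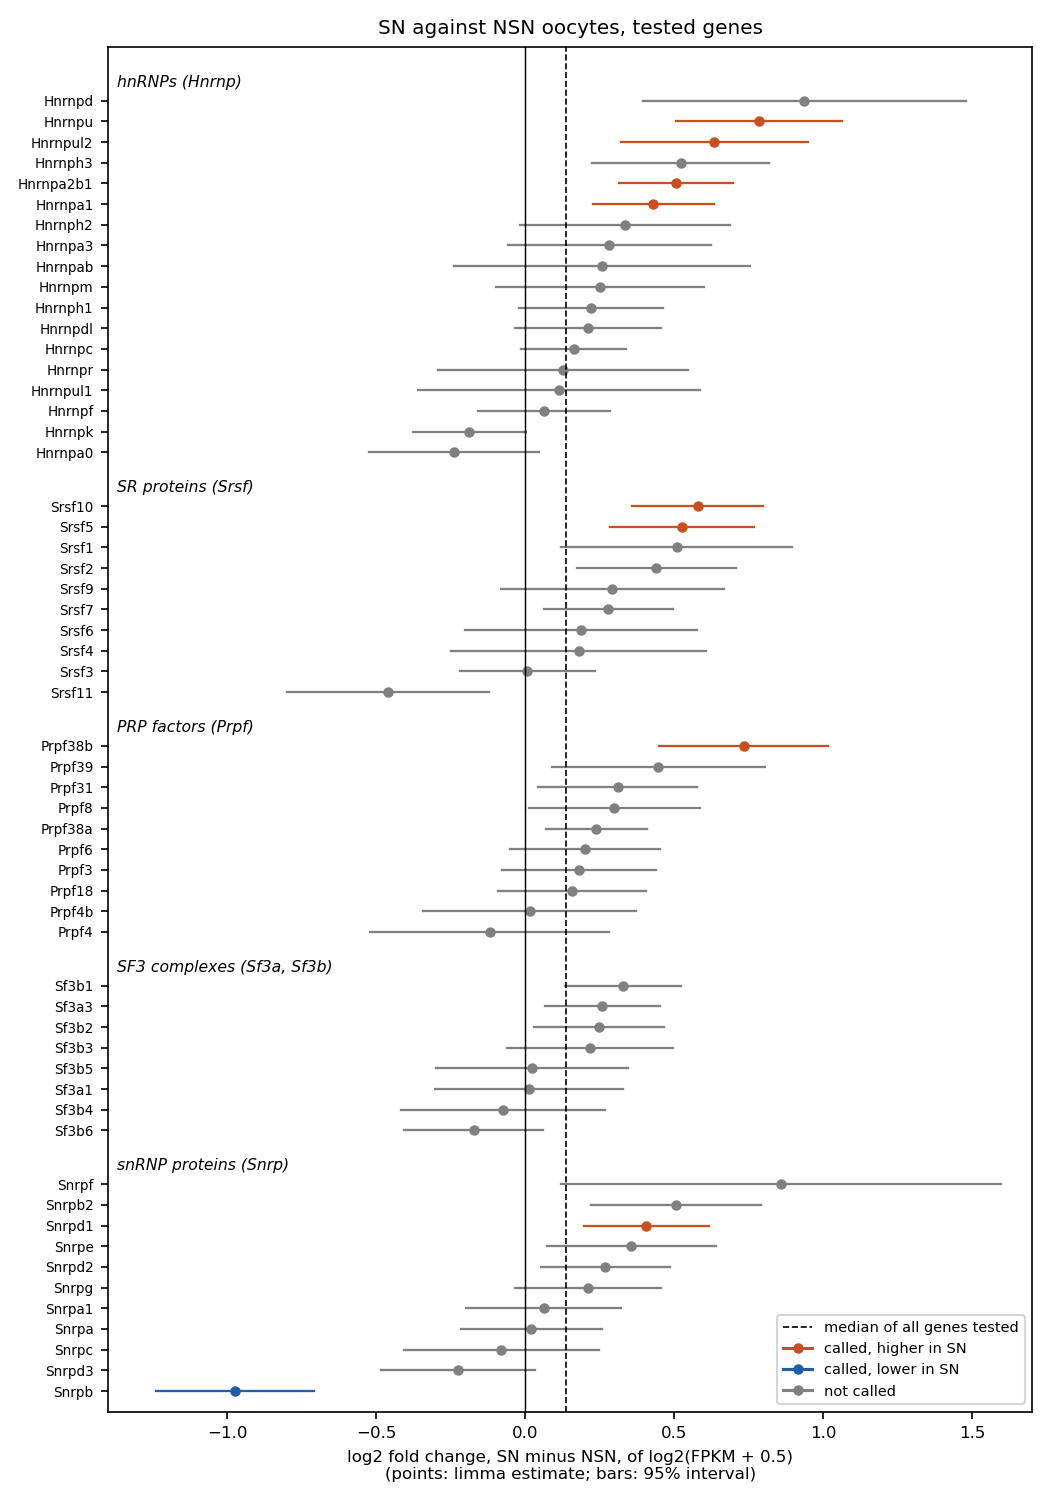
The log2 fold change from NSN to SN (x axis, from log2(FPKM + 0.5)) of the 58 tested genes but 1, by family, with bars for the 95% interval of limma; orange and blue mark the 8 genes called higher and the 1 called lower in SN, grey those not called, and the dashed line the median of all genes tested, 0.14. Snrpb stands alone on the left, and of all 58 estimates 49 lie above 0.

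Among the snRNP proteins, the Sm ring genes moved in different directions. Snrpb, which encodes the SmB proteins of the ring, had 14.1 and 12.7 FPKM in the NSN libraries and 6.66 and 6.51 FPKM in the SN libraries, on 285, 265, 132 and 136 read pairs. Both SN libraries lay far below both NSN libraries, and the replicates of each group lay close together. NSN oocytes had 13.4 ± 0.960 FPKM (SD, n = 2) and SN oocytes 6.58 ± 0.108 FPKM (SD, n = 2), 1.96-fold lower on the fitted scale, with a log2 fold change of -0.97 (standard error, SE, 0.11, 95% interval -1.24 to -0.71, adjusted p = 0.036 by limma). Leaving out single libraries moved it between -1.04 and -0.90, and after median scaling it was -1.12 (adjusted p = 0.045 by limma). Only 0.634% of all genes tested had a lower value. The gene (ENSMUSG00000027404.18) lies on chromosome 2 of GRCm39 from 130013547 to 130021323, and none of its exons overlap another annotated gene.

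Snrpd1, which encodes SmD1, went the other way. It had 20.2 FPKM in each NSN library and 27.0 and 26.7 FPKM in the SN libraries, so that both SN libraries were higher. Its log2 fold change was 0.41 (SE 0.09, adjusted p = 0.046 by limma), and after median scaling it was 0.25 with an adjusted p of 0.13 by limma. None of the other 5 Sm genes passed the threshold of limma on the FPKM as deposited, where Snrpd2, Snrpe and Snrpf had an unadjusted p under 0.05; voom with median scaling, described further on, called Snrpd3 lower. Snrpd2 had 24.4, 22.7, 28.5 and 28.4 FPKM in NSN replicates 1 and 2 and SN replicates 1 and 2 (log2 fold change 0.27, adjusted p = 0.10 by limma), and Snrpd3, in the same order, 11.2, 10.6, 9.59 and 8.91 FPKM (-0.23, 0.20). The groups did not overlap for either gene. Snrpf rested on 10, 16, 41 and 20 read pairs and had the highest log2 fold change of the family, 0.86, with a wide 95% interval from 0.12 to 1.59 (adjusted p = 0.12 by limma).

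Seen within each library, where scaling has no part, Snrpb made up 15.3% and 14.2% of the summed FPKM of the 7 Sm genes in NSN and 6.65% and 6.58% in SN oocytes. Its ratio to the median of the other 6 was 1.04 and 0.916 in NSN and 0.476 and 0.448 in SN libraries. Snrpd1 rose from 21.9% and 22.5% to 27.0% in both SN libraries. The largest share, that of Snrpd2, was between 25.3% and 28.7% in the 4 libraries. Snrpb thus stood near the middle of the ring genes in NSN and near the bottom in SN oocytes, with the groups apart.

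**Figure D3:**
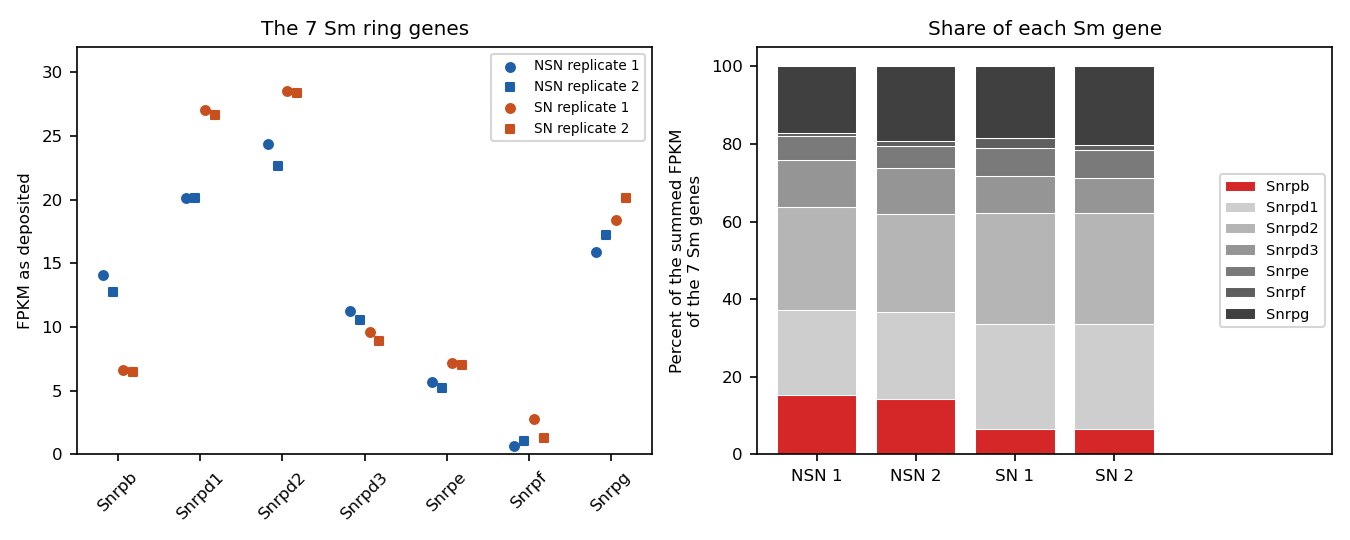
Left, FPKM as deposited of the 7 Sm ring genes, each point 1 library (blue NSN, orange SN); right, the share of each gene in the summed FPKM of the 7 within each library, Snrpb in red. Snrpb fell from 15.3% and 14.2% to 6.65% and 6.58% and Snrpd3 from 12.2% and 11.8% to 9.57% and 9.01%, while Snrpd1, Snrpd2, Snrpe and Snrpf had larger shares in both SN libraries and the groups of Snrpg overlapped.

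None of the proteins specific to 1 snRNP was called by limma on the FPKM as deposited at a minimum mean FPKM of 0.5. Snrpb2, a component of the U2 snRNP, had 12.7 and 14.4 FPKM in NSN and 20.9 and 18.0 FPKM in SN libraries. The groups were apart, but its log2 fold change of 0.51 missed the threshold (adjusted p = 0.052 by limma). Snrpb2 passed at a minimum mean FPKM of 5, where 1496 of the 5519 genes tested were called. Snrpa1, its partner in the U2 snRNP and the most abundant gene of the family, had 75.9 and 79.5 FPKM in NSN and 73.5 and 89.4 FPKM in SN libraries, which overlap (log2 fold change 0.06, 95% interval -0.20 to 0.32). The U1 components Snrpa and Snrpc overlapped as well, with log2 fold changes of 0.02 and -0.08. Their 95% intervals ran from -0.22 to 0.26 and from -0.41 to 0.25.

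No SF3 gene was called by limma at a minimum mean FPKM of 0.5. Of the 8 tested, 3 had an unadjusted p under 0.05 (37.5%, near the 31.7% of all genes tested). Voom, described further on, called 1, Sf3b1. The largest difference was that of Sf3b1, whose product grips the branch point, with 107 and 118 FPKM in NSN and 139 and 142 FPKM in SN libraries. Both SN libraries were higher, with a log2 fold change of 0.33 (SE 0.08, adjusted p = 0.058 by limma), on 11501 to 15826 read pairs per library. At a minimum mean FPKM of 5 it passed, where 1496 of the 5519 genes tested were called. The lowest was Sf3b6, which sits at the branch point beside Sf3b1, with 20.01 and 18.9 FPKM in NSN and 16.6 and 17.8 FPKM in SN libraries (log2 fold change -0.17, adjusted p = 0.27 by limma). The median log2 fold change of the 8 tested SF3 genes was 0.12, just under that of all genes, 0.14. For Sf3a1 and Sf3b5 the log2 fold change was 0.01 and 0.02, with 95% intervals from -0.30 to 0.32 and from -0.30 to 0.34. With 2 libraries per group, changes within these bounds were not excluded.

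Among the PRP factors, Prpf38b rose. It encodes a relative of the factor that joins the spliceosome before activation, and it had 10.8 and 10.7 FPKM in NSN and 16.6 and 19.9 FPKM in SN libraries. The SN libraries were both higher and differed more from each other than the NSN libraries did. The log2 fold change was 0.73 (SE 0.12, 95% interval 0.45 to 1.02, adjusted p = 0.036 by limma), and after median scaling it was 0.58 with an adjusted p of 0.058 by limma. Its better known relative Prpf38a was far more abundant, with 136 and 139 FPKM in NSN and 163 and 162 FPKM in SN libraries. There the groups were apart as well, yet the log2 fold change was only 0.24 (SE 0.07, adjusted p = 0.081 by limma).

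The remaining PRP genes were not called. Prpf8, the scaffold of the catalytic core, had 6.71, 7.76, 9.12 and 8.87 FPKM in NSN replicates 1 and 2 and SN replicates 1 and 2 (log2 fold change 0.30, adjusted p = 0.15 by limma). The tri-snRNP genes Prpf3, Prpf6 and Prpf31 had log2 fold changes of 0.18, 0.20 and 0.31, with both SN libraries above both NSN libraries for each. Prpf4, also of the tri-snRNP, was the lowest at -0.12 (95% interval -0.52 to 0.28), with 1.48 and 1.86 FPKM in NSN against 1.53 and 1.46 FPKM in SN libraries, which overlap. In all, 9 of the 11 tested PRP genes had both SN libraries above both NSN libraries and 0 had them below, against 44.8% and 17.8% of all genes tested. The whole family, Prpf19 and Prpf40b included, summed to 241 and 245 FPKM in NSN and 296 and 289 FPKM in SN libraries.

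Of the SR protein genes, Srsf10 and Srsf5 rose. Srsf10, whose product represses splicing when it is dephosphorylated, had 16.5 and 17.4 FPKM in NSN and 25.2 and 25.8 FPKM in SN libraries, clearly apart. Its log2 fold change was 0.58 (SE 0.09, 95% interval 0.36 to 0.80, adjusted p = 0.036 by limma). Srsf5, the most abundant SR gene, had 23.2 and 26.7 FPKM in NSN and 36.2 and 35.9 FPKM in SN libraries, also apart, with a log2 fold change of 0.53 (SE 0.10, adjusted p = 0.041 by limma). After median scaling these were 0.43 and 0.37, with adjusted p of 0.058 and 0.067 by limma. Of the exonic bases of Srsf5, 28.8% lie in other annotated genes.

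The SR genes did not move as 1 group. Srsf11 had 4.42 and 4.73 FPKM in NSN and 3.47 and 2.91 FPKM in SN libraries, so that both SN libraries were lower. Its log2 fold change of -0.46 (SE 0.14) missed the threshold (adjusted p = 0.085 by limma). Srsf3, of the same family, had 19.0, 19.4, 18.6 and 19.9 FPKM in NSN replicates 1 and 2 and SN replicates 1 and 2. Its log2 fold change was 0.01 with a 95% interval from -0.22 to 0.23, which leaves out changes of the size of Srsf10. Srsf1 and Srsf2, which stand for the family in most textbooks, had log2 fold changes of 0.51 and 0.44 (adjusted p = 0.092 and 0.060 by limma), with the groups apart for both. Of the exonic bases of Srsf2, 67.6% lie in other annotated genes. Summed over the family, the level was 108 and 115 FPKM in NSN and 141 and 144 FPKM in SN libraries, a ratio of 1.28.

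Of the 18 tested hnRNP genes, the largest of the 5 families, 4 were called, all higher in SN oocytes (22.2%, against 5.95% of all genes tested and 2 of the 10 tested SR genes). At an unadjusted p under 0.05 by limma there were 6 (33.3%, near the 31.7% of all genes tested). After median scaling limma called 1 of them, where 2.2% of all genes were called. Hnrnpu, whose product is a scaffold of chromatin and RNA in the nucleus, had 11.5 and 13.5 FPKM in NSN and 22.7 and 20.9 FPKM in SN libraries. The groups were well apart, with a log2 fold change of 0.79 (SE 0.12, 95% interval 0.51 to 1.06, adjusted p = 0.036 by limma) and 0.64 after median scaling, where it still passed (adjusted p = 0.048 by limma). Of the exonic bases of Hnrnpu, 34.1% lie in the neighbouring gene Cox20. Its relative Hnrnpul2 had 8.27 and 10.3 FPKM in NSN and 15.1 and 14.2 FPKM in SN libraries, again apart, a log2 fold change of 0.63 (SE 0.13, adjusted p = 0.044 by limma) and 0.49 after median scaling (adjusted p = 0.068 by limma). Part of its exonic bases, 24.96%, lies in other annotated genes. The other relative, Hnrnpul1, had 0.508, 0.494, 0.474 and 0.702 FPKM in NSN replicates 1 and 2 and SN replicates 1 and 2, which overlap, on at most 50 read pairs.

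Hnrnpa1 and Hnrnpa2b1, close relatives that repress exons and carry RNA to the cytoplasm, rose as well. Hnrnpa1 had 99.4 and 111 FPKM in NSN and 144 and 139 FPKM in SN libraries, a log2 fold change of 0.43 (SE 0.08, adjusted p = 0.042 by limma). Hnrnpa2b1 had 60.2 and 61.9 FPKM in NSN and 89.7 and 84.1 FPKM in SN libraries, a log2 fold change of 0.50 (SE 0.08, adjusted p = 0.036 by limma). The groups did not overlap for either gene. After median scaling the log2 fold changes were 0.27 and 0.35, with adjusted p of 0.088 and 0.063 by limma. Of the exonic bases of Hnrnpa2b1, 45.6% lie in other annotated genes. The 2 further A-type genes were not called, as Hnrnpa3 had a log2 fold change of 0.28 and Hnrnpa0 one of -0.24 (adjusted p = 0.22 for both by limma). Hnrnpa0 had 5.86 and 6.28 FPKM in NSN against 5.16 and 4.96 FPKM in SN libraries, the opposite order to Hnrnpa1.

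The largest hnRNP difference was not called. Hnrnpd, which binds AU-rich elements of messenger RNA, had 1.87 and 2.98 FPKM in NSN and 5.80 and 4.29 FPKM in SN libraries. The SN libraries were both higher, but the replicates of each group lay far apart, and the log2 fold change of 0.94 (SE 0.23, 95% interval 0.39 to 1.48) had a limma adjusted p of 0.054. NSN oocytes had 2.42 ± 0.780 FPKM (SD, n = 2), SN oocytes 5.04 ± 1.07 FPKM (SD, n = 2). The 2 most abundant hnRNP genes went in opposite directions without passing. Hnrnpk had 298 and 285 FPKM in NSN and 268 and 244 FPKM in SN libraries, with the SN libraries lower (log2 fold change -0.19, adjusted p = 0.16 by limma). Hnrnpc, which binds uridine tracts, had 123 and 125 FPKM in NSN and 135 and 142 FPKM in SN libraries (log2 fold change 0.16, adjusted p = 0.19 by limma), and after median scaling its log2 fold change was 0.01. Hnrnpk alone made up 35.8% of the summed FPKM of the hnRNP genes.

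The sums of the families were higher in both SN libraries than in both NSN libraries on the FPKM as deposited, but those of the Snrp and the Hnrnp genes turned lower after median scaling. On the deposited scale the log2 ratio of the mean sum in SN to that in NSN was 0.09 for the Snrp genes, 0.24 for the Sf3a and Sf3b genes, 0.27 for the Prpf genes, 0.36 for the Srsf genes and 0.14 for the Hnrnp genes. The Snrp genes summed to 245 and 238 FPKM in NSN and 248 and 268 FPKM in SN libraries, so that the lowest SN library was barely above the highest NSN library.

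**Figure D4:**
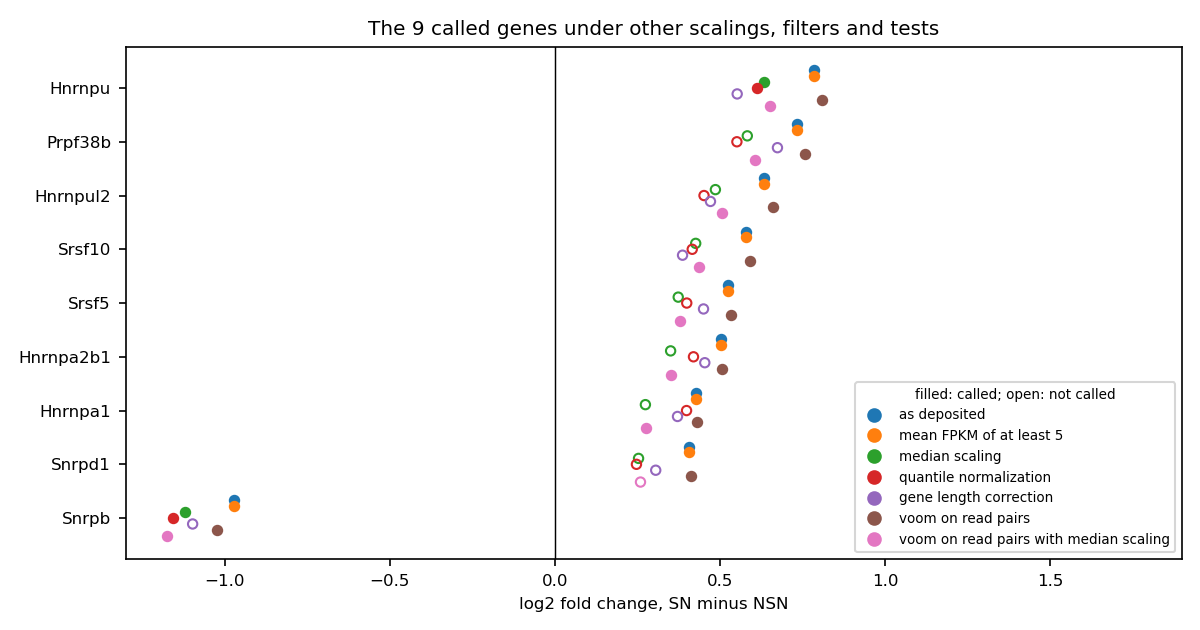
Log2 fold change from NSN to SN (x axis) of the 9 called genes on the FPKM as deposited and under 6 alternatives, filled where the gene was called and open where it was not. All 9 kept their direction in these 7 settings, and Snrpb and Hnrnpu were called in 6 of them, all but the gene length correction.

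How firmly each call held depended on the setting. Voom, which models the read pairs recovered from the FPKM, called 18 members, 16 higher and 2 lower, where 19.7% of all genes were called, 15.1% higher and 4.57% lower. All 9 genes were among them, and the additions included Hnrnpd, Hnrnph3, Prpf39, Sf3b1, Snrpb2, Srsf1, Srsf11 and Srsf2. With median scaling of the totals voom called 12 members, 8 higher and 4 lower, where 14.6% of all genes were called, 6.36% higher and 8.24% lower. Of the 9 genes it kept 8, all but Snrpd1, and the additions were Hnrnpd, Hnrnpk, Snrpd3 and Srsf11. With the replicate number as a block, 5 of the 9 were called, namely Hnrnpa2b1, Hnrnpu, Prpf38b, Snrpb and Srsf10. Of all 11672 genes tested, 422 were called there.

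The 3 called genes with the highest log2 fold change, Hnrnpu, Prpf38b and Hnrnpul2, are shown with their promoters, so that the genes that rose most can be read side by side. Each line holds the 250 bases before the start of the canonical GENCODE transcript on GRCm39, read along the strand of the gene. Capitals mark matches, on either strand, to CCAAT (the CCAAT box), GGGCGG (the GC box), CCGGAA (the core of ETS sites), TATAAA (the TATA box) and TGACGTCA (the cAMP response element), and matches may overlap.
Hnrnpu, chr1:178165363-178165612, minus strand: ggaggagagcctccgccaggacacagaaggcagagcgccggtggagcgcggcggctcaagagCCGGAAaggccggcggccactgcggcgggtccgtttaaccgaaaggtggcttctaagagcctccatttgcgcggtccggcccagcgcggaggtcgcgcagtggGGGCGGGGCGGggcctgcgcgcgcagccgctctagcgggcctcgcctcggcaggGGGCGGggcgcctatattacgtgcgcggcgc
Prpf38b, chr3:108819045-108819294, minus strand: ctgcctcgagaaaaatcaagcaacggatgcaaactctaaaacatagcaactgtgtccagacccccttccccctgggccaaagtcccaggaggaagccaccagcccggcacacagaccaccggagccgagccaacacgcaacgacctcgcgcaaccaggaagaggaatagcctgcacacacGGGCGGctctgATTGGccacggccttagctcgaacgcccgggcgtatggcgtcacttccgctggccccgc
Hnrnpul2, chr19:8796675-8796924, plus strand: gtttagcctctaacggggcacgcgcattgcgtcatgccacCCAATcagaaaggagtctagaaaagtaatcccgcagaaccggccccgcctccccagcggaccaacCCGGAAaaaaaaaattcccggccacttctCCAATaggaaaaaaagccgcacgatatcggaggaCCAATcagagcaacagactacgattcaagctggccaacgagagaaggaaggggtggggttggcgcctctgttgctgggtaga

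The promoter of Hnrnpu was the richest in G and C of the 3, at 73.6%, with 3 GC boxes and 1 ETS core, and that of Hnrnpul2 the poorest, at 54.8%. Hnrnpul2 had 3 CCAAT boxes and 1 ETS core, and Prpf38b 1 GC box and 1 CCAAT box. Over the 58 tested members, 51.7% of these stretches held a GC box, 37.9% a CCAAT box, 25.9% an ETS core, 5.17% a TATA box and 1.72% a cAMP response element. In the 9589 tested protein-coding genes the shares were 48.5%, 37.2%, 18.7%, 7.69% and 2.19%. The median G and C content was 57.8% in the members and 56.0% in all. These matches describe the sequence and were not tied to the expression values.

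Other genes of the splicing machinery also held more genes called higher than lower, as did all genes tested (695 higher and 231 lower). Of a list of 90 further spliceosome and splicing regulator genes, 81 were tested and 14 were called, 13 of them higher and 1 lower in SN. That is 17.3% of those tested (16.0% higher and 1.23% lower), against 7.93% of all genes tested (5.95% higher and 1.98% lower). With the filter set at a mean FPKM of at least 5, it was 19 of 60, against 1496 of 5519 genes, shares that lay closer together. Their median log2 fold change was 0.20, against 0.14 over all genes tested. Rbm5, an RNA-binding regulator of early spliceosome assembly, was the 1 that fell, with 6.06 and 6.03 FPKM in NSN and 2.92 and 1.79 FPKM in SN libraries. Both SN libraries lay far below the NSN libraries, with a log2 fold change of -1.23 (SE 0.20, adjusted p = 0.037 by limma). Among those that rose, Magohb, a core protein of the exon junction complex, had the largest log2 fold change, 0.88 (SE 0.15, adjusted p = 0.037 by limma). Lsm3, of the LSm ring that binds U6 RNA, had 56.6 and 59.7 FPKM in NSN and 97.3 and 90.6 FPKM in SN libraries, a log2 fold change of 0.69 (adjusted p = 0.036 by limma). Snrnp70, the core protein of the U1 snRNP, and Snrnp48, of the minor spliceosome, had log2 fold changes of 0.66 and 0.65. Sart1 and Pcbp2 had 0.67 and 0.69. After median scaling 2 of the 81 genes were called, Lsm3 higher and Rbm5 lower, where 2.2% of all genes were called.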

How the data were processed

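RNA from 2 NSN and 2 SN libraries, each of 15 oocytes, was analysed (the labels speak of 3 samples per group). The authors trimmed the reads (Trim Galore 0.6.10 per the labels), mapped them with HISAT2 to GRCm39 with GENCODE gene models, used featureCounts to assign read pairs to exons, keeping primary alignments past a mapping quality limit and ignoring strand, and then computed and deposited FPKM. Without strand, reads of overlapping genes cannot be told apart, and reads that match processed copies of a gene, such as those of Hnrnpa1, can be lost to the mapping quality filter. The read pairs behind the FPKM were recovered as the smallest whole numbers that give all 4 values of a gene (16844 of 16861 genes, within a relative tolerance of 1e-12), from totals set by 5 mitochondrial tRNA genes of known length; a value can be too small by a common factor. Read pairs come from amplified cDNA and are not independent molecules, and the 95% intervals are those of limma, from the spread between libraries.

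log2(FPKM + 0.5) was compared with limma 3.58.1 in R 4.3.3 (lmFit, eBayes with a variance trend, two-sided, Benjamini-Hochberg over all genes tested) for genes whose FPKM averaged at least 0.5. Positions, exon overlap and promoters came from a later GENCODE release on GRCm39, in which all 64 members occur once. Its exonic lengths were 2.39 times those behind the FPKM at the median of the members. Overlap with other genes may therefore differ in the models the authors used, for which it was not computed. Other values came from Python 3.11.15, numpy 2.4.6, pandas 2.3.3, scipy 1.17.1 and matplotlib 3.10.9. The procedure was tested on simulated read pairs in which unchanged genes had no shift between the groups. The simulation therefore does not bear on the scaling of these data. Alternatives were pseudocounts of 0.1 and 1, a test of every listed gene, a stricter filter (average FPKM of 5 or more), median scaling or quantile normalization, a fit that ignores the variance trend, a block for the replicate number, a loess correction for gene length (span 0.3, with and without the block), voom on the read pairs with total or median scaling, other thresholds and each library left out in turn.

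The members, lists and tests were chosen with earlier results of these data known. Every member may be named. Full values are given for the called members, the 5 with the highest mean FPKM, the largest rise and fall in each family and those with a mean FPKM under 0.5, with others added for their role. Of the further spliceosome genes, only genes among the 8 called with the largest absolute log2 fold change are named. A few items are not reported here.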

Additional observations from a re-analysis of the deposited data

How the results depend on the processing

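The called genes on the FPKM as deposited were 926 of all genes, 9 of the splicing factor genes and 14 of the further spliceosome genes. In that order the counts were 0, 0 and 0 when every listed gene was tested, when the variance trend was ignored, and after gene length correction without or with the replicate block, where in turn 27, 22, 22 and 18 splicing factor genes had an unadjusted p under 0.05 by limma. They were 257, 2 and 2 with median scaling, 230, 2 and 3 with quantile normalization, 422, 5 and 8 with the replicate block, 2370, 18 and 27 at an adjusted p under 0.1, and 2292, 18 and 27 with voom. At a mean FPKM of at least 5, where 5519 genes were tested instead of 11672, the counts were 1496, 13 and 19. With voom and median scaling they were 1703 (742 higher and 961 lower), 12 and 16. Leaving out a library gave 0 to 1685, 0 to 12 and 0 to 17. Where a count moved, the cause was not tested. The correlation across genes of the replicate differences of NSN and SN was -0.07. This value cannot decide whether libraries with the same replicate number share more than that number, since an effect shared by only part of the genes could be missed. Whether the numbers pair the libraries was not tested further, and neither was the reason why calls were lost under the replicate block.

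The median log2 fold change of the splicing factor genes, 0.24, became 0.0897 with median scaling, 0.11 with quantile normalization, 0.13 with gene length correction (with or without the replicate block) and 0.0911 with voom and median scaling. It ranged from 0.21 to 0.28 with a library left out. Relative to the median of all genes it was 0.10 as deposited and 0.08 with median scaling. The log2 ratio of the summed FPKM turned to -0.0622 with median scaling and -0.0352 with quantile normalization for the Snrp genes, and to -0.0167 with median scaling for the Hnrnp genes. The log2 fold change of the single gene Prpf4 ranged from -0.25 to 0.00464 with a library left out. For the 19 tested genes given in full, alternatives that used every library kept direction and call in 162 values, lost the call in 55, gained one in 7 and turned the direction in 0. Only the 9 called genes could lose a call, and the 162 values include genes that were not called and stayed so.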
